A study of Mus musculus with 20 samples.

Results

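The genes described here are 46 regulators and machines of the cell division cycle, taken by their symbols from a count table of 20914 genes measured in mouse liver. They were divided by textbook role, with earlier results of these data known, into 10 G1 genes, 19 S-phase genes and 17 G2/M genes. The MYB genes Mybl1 and Mybl2 were counted in the S-phase class. The livers came from male mice of strain LiB12cKO aged 8 weeks, sampled from the left lateral lobe, and total RNA was sequenced as paired fragments. All 20 mice carried the floxed Hsd17b12 gene on both alleles (HSD17B12lox/lox). The 10 knockout (KO) mice were Alb-CreCre/WT and the 10 wild-type (WT) mice were Alb-CreWT/WT. Hsd17b12 encodes a 3-ketoacyl-CoA reductase used in the elongation of very long chain fatty acids, and the design asks what its loss in hepatocytes does to the liver. Albumin promoter activity, which begins in fetal hepatocytes, drove Cre, so the deletion was aimed at hepatocytes. Whether other liver cells kept the gene was not tested. Every KO mouse and no WT mouse carried Cre, so effects of Cre and of Hsd17b12 loss cannot be told apart.

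Most hepatocytes of an adult liver are quiescent, and they can return to the cell cycle when the organ regenerates. D-type cyclins with Cdk4 and Cdk6 start that return in G1 by phosphorylating the retinoblastoma protein family, which frees E2F factors to switch on genes for DNA synthesis. In S phase the MCM helicase, loaded at origins by Cdc6 and Cdt1, unwinds the DNA. In G2 and mitosis, factors such as Foxm1 and the MYB proteins switch on cyclins A and B, Cdk1, the mitotic kinases and the spindle checkpoint.

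Most of the mitotic genes that could be tested were higher in KO. Of the 15 G2/M genes that could be tested, 12 were higher and 1 was lower in KO, with a median log2 fold change of 1.88. Of the 18 S-phase genes tested, 5 were higher and 1 was lower, with a median of 0.28. Of the 10 G1 genes, 5 were higher and 3 were lower, with a median of 0.12. The lowest KO value of cyclin D1 (Ccnd1) lay above the highest WT value, while all KO values of the cyclin gene Ccnf lay below all WT values. Such separation with KO above was seen in 2 of the 43 tested members and in 7.1% of all tested genes. Separation with KO below was seen in 1 tested member and in 6.47% of all tested genes. These calls used edgeR's quasi-likelihood test at an adjusted p under 0.05, fitted to all 13670 genes that passed a filter on low counts. Across those genes 28.2% were called higher and 31% were called lower, with a median log2 fold change of -0.02. The 43 tested members gave 22 higher and 5 lower calls, of which 12 higher and 1 lower were G2/M genes and 5 higher and 3 lower were G1 genes. The share of S-phase genes called higher was near the background. Library size scaling, described below, changed the G1 and S counts more than the G2/M count, which became 14 higher and 1 lower. Under that scaling 68.4% of all tested genes were called higher and 6.71% lower. Of the G2/M genes called higher, 7 needed KO mice to pass the filter on low counts. No test compared the classes with each other.

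The libraries held 16693195 to 29124124 assigned fragments. Hsd17b12 checked the labels: it spanned 123 to 177 CPM (median 154) in WT and 44.2 to 51.3 CPM (median 47.9) in KO, with no overlap and a log2 fold change of -1.66 (SE 0.0644; edgeR adjusted p = 3.85e-14). CPM here are library-scaled fragment counts (the usual CPM, with library sizes multiplied by TMM factors). These factors lay between 1.05 and 1.24 in KO and between 0.787 and 0.974 in WT. That difference in scaling touches every count below: with library size alone the median gene moved up by 0.47 on the log2 scale, and 68.4% of genes were called higher and 6.71% lower. Of 7 hepatocyte markers, 7 fell (5 fell and 1 rose with library size alone), and their summed level was 76820 to 107544 CPM in WT and 45500 to 61493 CPM in KO. In whole tissue, fewer cells of a type and less RNA per cell cannot be told apart.

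Particular mice stood apart in these genes. Mouse KO_416 had the highest KO level for 34 of the 46 members, and for 17 of the 17 G2/M genes, whereas it was highest for 15.3% of all tested genes. Its G2/M levels exceeded the median of the other 9 KO mice by 1.94-fold (Ccnf) to 8.90-fold (Cdc20), with a median of 5.42-fold. The same ratio had a median of 2.00 over the S-phase genes, 1.15 over the G1 genes and 1.01 over all tested genes. Among WT mice, WT_415 was highest for 12 of the 17 G2/M genes and for 8.7% of all tested genes. Mouse KO_391 had the lowest KO level for 20 of the 46 members. How often it was lowest over all tested genes was not counted, and it was the highest KO mouse for 21.3% of them. On the leading principal component of the most variable genes its score was 4.07, where WT mice scored -45.6 to -22.5 and the remaining KO mice 28.45 to 58.2. Without KO_416 the members gave 20 higher and 6 lower calls (background 29.4% and 28.1%), of which 11 higher and 1 lower were among the 15 G2/M genes, and the G2/M median was 1.498. Without KO_391 they gave 25 higher and 5 lower among 45 tested (background 30.3% and 29.3%). With both KO_416 and WT_415 left out they gave 19 higher and 6 lower among 42 tested (background 27.9% and 30.6%), with 11 higher and 1 lower among 15 G2/M genes and a median of 1.71.

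**Figure D1:**
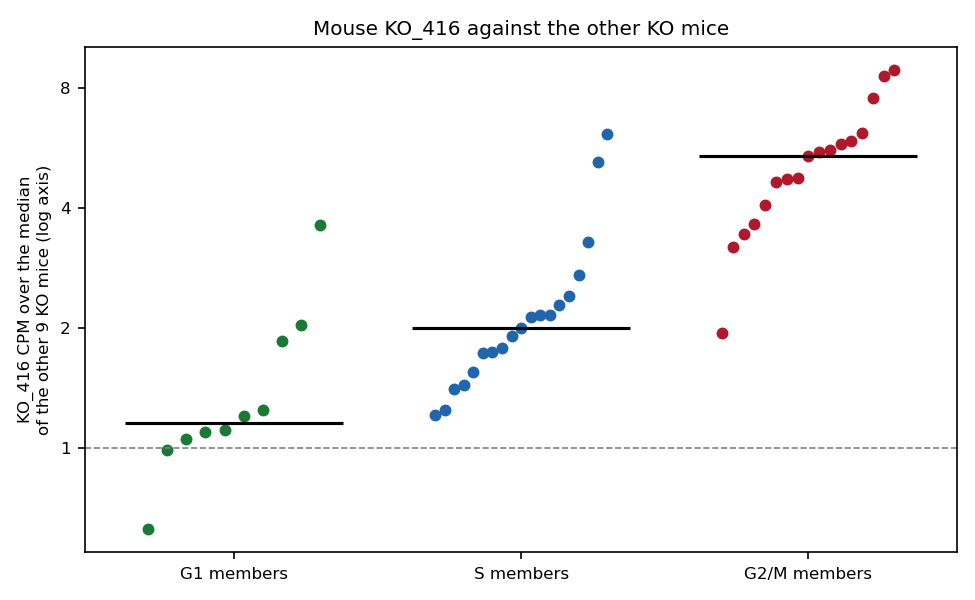
Level of each member in mouse KO_416 divided by the median of the other 9 KO mice, on a log axis, with 1 point per gene and a bar at the class median. The bars stand at 1.15 for G1, 2.00 for S and 5.42 for G2/M, and the dashed line marks equal levels.

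**Figure D2:**
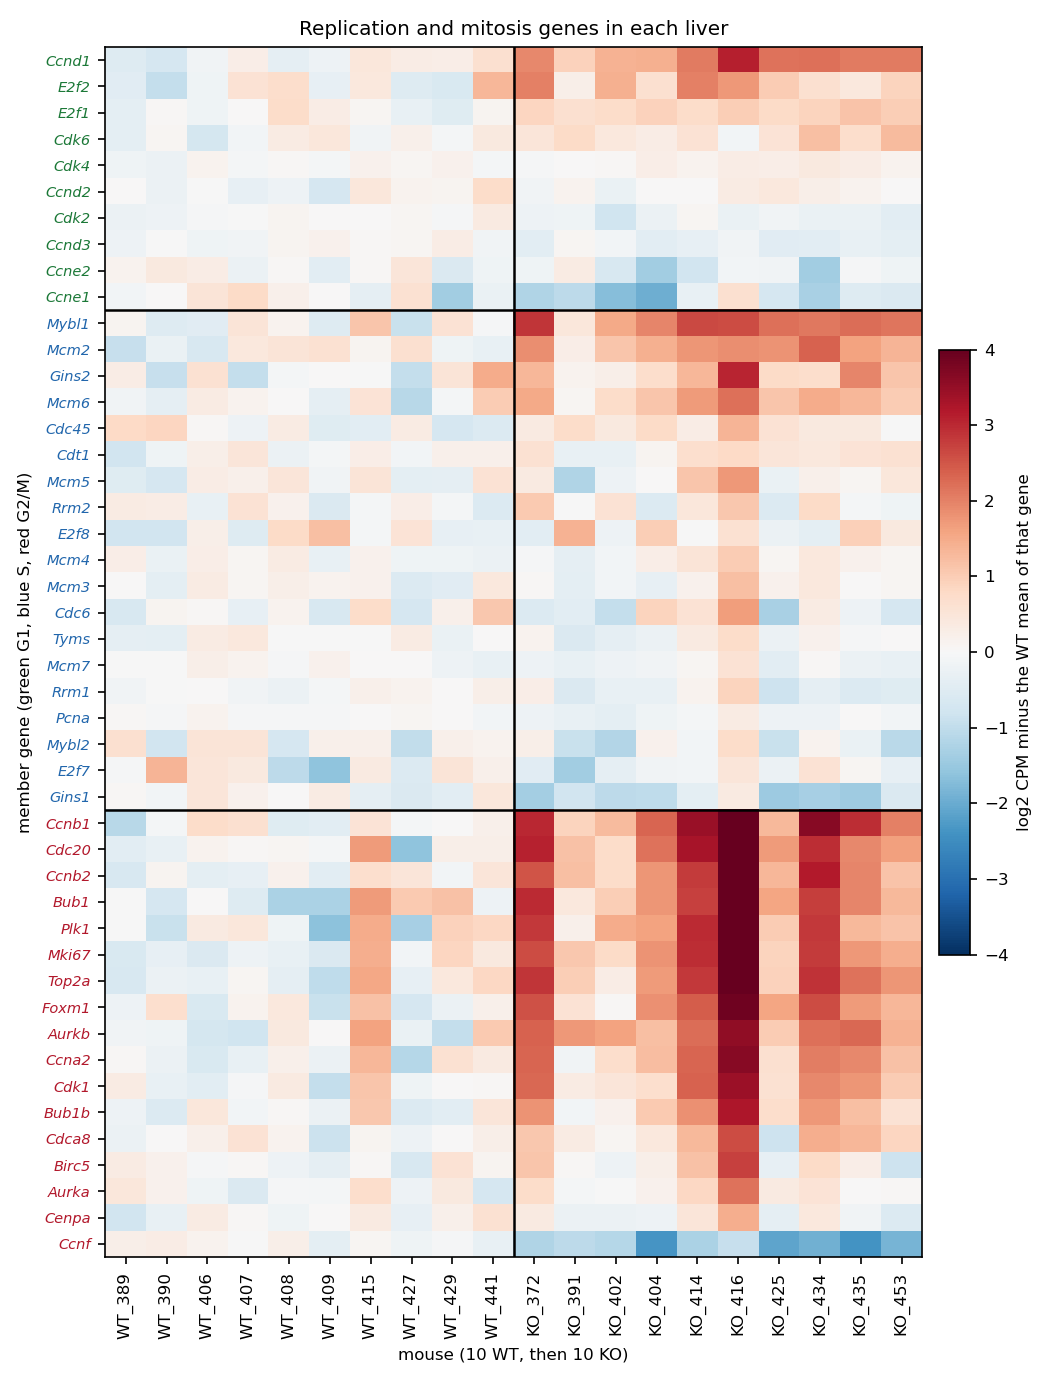
Log2 CPM of the 46 members in each of the 20 livers, minus the WT mean of the gene; rows are grouped by class and sorted by fold change, and the colour scale ends at 4. The red block of G2/M genes in KO is strongest in KO_416, it is also visible in KO_372, KO_414 and KO_434, and Ccnf forms the blue bottom row.

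The classes also differed in how many of their promoters held motifs of the cell cycle. Many genes of late cell cycle carry a CCAAT box, bound by NF-Y, and a cell cycle homology region (CHR), bound by the DREAM and MuvB complexes, whereas many genes of DNA synthesis carry E2F sites. RefSeq promoter windows (GRCm38.p6, 250 bases before to 50 after the start) matched 36 of the 46 members, with 39 windows in all. A gene was counted once if any of its windows held a match. Ccna2, Ccnd1, Ccnd2, Ccne2, Mcm4, Gins1, Gins2, Mybl1, Foxm1 and Aurkb had no window. Both strands were searched for the CHR letters TTTGAA, for CCAAT and for the E2F letters TTTCCCGC, TTTCGCGC, TTTGCCGC and TTTGGCGC. Among genes with a window, the CHR letters were found in 11 of 14 G2/M genes (78.6%), 3 of 15 S-phase genes, 1 of 7 G1 genes and 20.2% of all 27025. CCAAT was found in 13 of 14 G2/M genes (92.9%), 11 of 15 S-phase genes (73.3%), 3 of 7 G1 genes (42.9%) and 41.1% of all genes. CHR and CCAAT together were found in 11 of the 14 G2/M genes and in 7.97% of all genes. E2F letters were found in 7 of 15 S-phase genes (46.7%), 2 of 7 G1 genes (28.6%), 1 of 14 G2/M genes and 2.6% of all genes. These are matches of letters, not shown binding sites.

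The following sequences are the 180 bases before the RefSeq start, 5′ to 3′ on the gene's strand, which is the minus strand in all 9 cases. The 9 genes were picked by hand. Capitals mark CHR, CCAAT and E2F letters on either strand, so CCAAT also appears as ATTGG and the CHR as TTCAAA. The leading 5 are mitotic genes that rose: Cdc20 (chr4:118437344-118437523), Ccnb2 (chr9:70421555-70421734), Cdk1 (chr10:69352913-69353092), Top2a (chr11:99024190-99024369) and Mki67 (chr7:135716380-135716559).
Cdc20: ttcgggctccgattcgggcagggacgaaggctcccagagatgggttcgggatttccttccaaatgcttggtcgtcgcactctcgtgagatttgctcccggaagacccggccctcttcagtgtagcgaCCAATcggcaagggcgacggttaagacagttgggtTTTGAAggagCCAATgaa
Ccnb2: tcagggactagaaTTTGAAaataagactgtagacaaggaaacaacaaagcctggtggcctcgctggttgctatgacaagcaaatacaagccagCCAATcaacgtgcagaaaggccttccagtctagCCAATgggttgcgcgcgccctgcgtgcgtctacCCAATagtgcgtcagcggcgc
Cdk1: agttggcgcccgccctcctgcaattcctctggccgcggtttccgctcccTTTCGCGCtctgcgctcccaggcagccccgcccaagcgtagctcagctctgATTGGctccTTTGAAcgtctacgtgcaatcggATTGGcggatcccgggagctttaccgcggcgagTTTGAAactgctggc
Top2a: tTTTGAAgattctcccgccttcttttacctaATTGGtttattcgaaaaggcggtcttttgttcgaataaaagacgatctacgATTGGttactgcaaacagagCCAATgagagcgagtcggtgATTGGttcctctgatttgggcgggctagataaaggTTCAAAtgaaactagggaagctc
Mki67: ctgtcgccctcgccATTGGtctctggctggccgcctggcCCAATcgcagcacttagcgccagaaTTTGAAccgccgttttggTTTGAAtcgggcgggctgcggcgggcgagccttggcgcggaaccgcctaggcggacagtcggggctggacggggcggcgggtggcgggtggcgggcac
Each of these 5 windows held at least 1 CHR and 1 CCAAT match, and in Cdc20 the CHR letters began 18 bases before the start, between CCAAT matches that began 53 and 8 bases before it. Of the G2/M genes not shown, Plk1, Bub1b, Cdca8, Aurka and Cenpa held CHR letters only after the start, and Ccnb1, Bub1 and Birc5 held none. Cdk1 also held the only E2F match among the G2/M windows, 131 bases before the start. Among the G2/M genes with a window, CHR and CCAAT together were found in 8 of the 9 called higher. Aurka, Cenpa and Ccnf, tested and not called higher, also held both. The letters therefore did not separate the tested G2/M genes called higher from the others. Ccnf (chr17:24251410-24251589) is shown because its RNA fell, and its window held 2 CHR and 2 CCAAT matches.
Ccnf: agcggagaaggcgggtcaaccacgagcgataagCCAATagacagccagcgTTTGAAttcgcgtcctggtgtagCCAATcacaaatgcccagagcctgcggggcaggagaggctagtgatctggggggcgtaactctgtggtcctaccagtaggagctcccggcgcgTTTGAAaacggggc
The S-phase examples are Mcm6 (chr1:128359706-128359885), which rose, and Mcm3 (chr1:20820313-20820492) and Pcna (chr2:132253181-132253360), for which no change passed the test.
Mcm6: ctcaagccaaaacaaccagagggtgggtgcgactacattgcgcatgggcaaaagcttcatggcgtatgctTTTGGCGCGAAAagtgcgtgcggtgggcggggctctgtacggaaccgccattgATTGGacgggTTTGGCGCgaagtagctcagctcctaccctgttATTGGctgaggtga
Mcm3: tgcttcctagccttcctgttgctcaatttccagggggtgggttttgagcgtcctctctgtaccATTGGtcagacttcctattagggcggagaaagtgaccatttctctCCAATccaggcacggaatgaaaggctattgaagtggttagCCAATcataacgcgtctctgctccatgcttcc
Pcna: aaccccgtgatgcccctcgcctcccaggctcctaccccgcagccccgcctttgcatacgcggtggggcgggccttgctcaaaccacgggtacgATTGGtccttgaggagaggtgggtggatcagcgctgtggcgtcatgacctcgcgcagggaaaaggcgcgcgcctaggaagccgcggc
Mcm6 held E2F matches on both strands that overlap in TTTGGCGCGAAA, and another further down. Mcm3 held its E2F matches after the start, outside the bases shown, and Pcna held none of the letters searched other than CCAAT. Among these S-phase genes with E2F letters, Mcm6 was called higher and Mcm3 was not.

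In G1, the cyclin D family moved apart. Ccnd1 (Entrez gene 12443; mm10 chromosome 7, 144929931 to 144939925, 5 exon blocks), the cyclin that links growth signals to Cdk4 and Cdk6, spanned 10.5 to 26.2 CPM (median 17.8) in WT and 32.2 to 146 CPM (median 72.0) in KO. The groups did not overlap, a pattern seen with KO above in 7.1% and with KO below in 6.47% of tested genes. Its log2 fold change was 2.00 (SE 0.23; edgeR adjusted p = 4.71e-07), and it was 1.84 without KO_416. Its length-normalised level rose from a median of 4.69 RPKM to 19.0 RPKM, which took it past Ccnd3 (16.0 RPKM in WT and 12.4 RPKM in KO). Ccnd3 spanned 31.2 to 43.7 CPM (median 36.2) in WT and 26.3 to 37.7 CPM (median 28.1) in KO, and fell by 0.29 on the log2 scale (edgeR adjusted p = 0.0026). That fall depended on the scaling, since library size alone gave a rise of 0.18 (adjusted p = 0.0288). Ccnd3 shares 359 exon bases with Bysl on the other strand. Ccnd2 spanned 2.69 to 7.31 CPM (median 4.42) in WT and 3.65 to 5.94 CPM (median 4.62) in KO, with a log2 fold change of 0.05 that did not pass the test (edgeR adjusted p = 0.775). Of the D-type cyclins, only Ccnd1 separated the groups completely.

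The kinases that D-type cyclins activate rose less. Cdk4 was the most abundant member per length in WT, with a median of 23.6 RPKM, and spanned 27.3 to 36.5 CPM (median 31.8) in WT and 31.0 to 42.2 CPM (median 37.0) in KO. Its log2 fold change was 0.18 (edgeR adjusted p = 0.0224). Cdk6, its close relative, spanned 1.58 to 3.61 CPM (median 2.63) in WT and 2.45 to 6.51 CPM (median 3.91) in KO, with a log2 fold change of 0.65 (SE 0.17; edgeR adjusted p = 0.00272). KO_416 had the lowest Cdk6 of the KO mice, so this gene did not follow the mitotic genes in that mouse. Cdk2, the partner of cyclins E and A, spanned 10.8 to 16.4 CPM (median 12.9) in WT and 7.31 to 13.4 CPM (median 10.8) in KO, and fell by 0.26 on the log2 scale (edgeR adjusted p = 0.0141). With library size alone Cdk2 was at 0.21 and no longer passed (adjusted p = 0.0831).

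The cyclin E genes were low and did not rise. Ccne1, which with Cdk2 drives entry into S phase, spanned 0.390 to 2.04 CPM (median 1.16) in WT and 0.233 to 1.87 CPM (median 0.604) in KO. It fell by 0.83 on the log2 scale (edgeR adjusted p = 0.0295), a call that leaving out any of 7 mice removed (adjusted p up to 0.0604). Scaled by library size it was at -0.35 (adjusted p = 0.333). The highest KO value, 1.87 CPM, was that of KO_416. Ccne2 spanned 0.488 to 1.11 CPM (median 0.784) in WT and 0.233 to 0.993 CPM (median 0.667) in KO, with a log2 fold change of -0.44 that did not pass (edgeR adjusted p = 0.119). It shares 1734 exon bases with Ints8 on the other strand, whose mean level in WT was 16.1 CPM.

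The activating E2F genes were both higher in KO. E2f1 spanned 2.44 to 5.77 CPM (median 3.54) in WT and 5.36 to 7.75 CPM (median 6.37) in KO, and 8 of 10 KO mice lay above the highest WT mouse. Its log2 fold change was 0.85 (SE 0.13; edgeR adjusted p = 6.73e-06). E2f2 spanned 0.402 to 2.32 CPM (median 0.717) in WT and 1.03 to 3.81 CPM (median 1.77) in KO, with a log2 fold change of 1.14 (SE 0.32; edgeR adjusted p = 0.00381). The E2f1 and E2f2 values of KO_416 were within the range of the other KO mice. With library size alone the G1 class gave 7 higher and 0 lower calls, where 68.4% of all tested genes were higher and 6.71% lower.

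**Figure D3:**
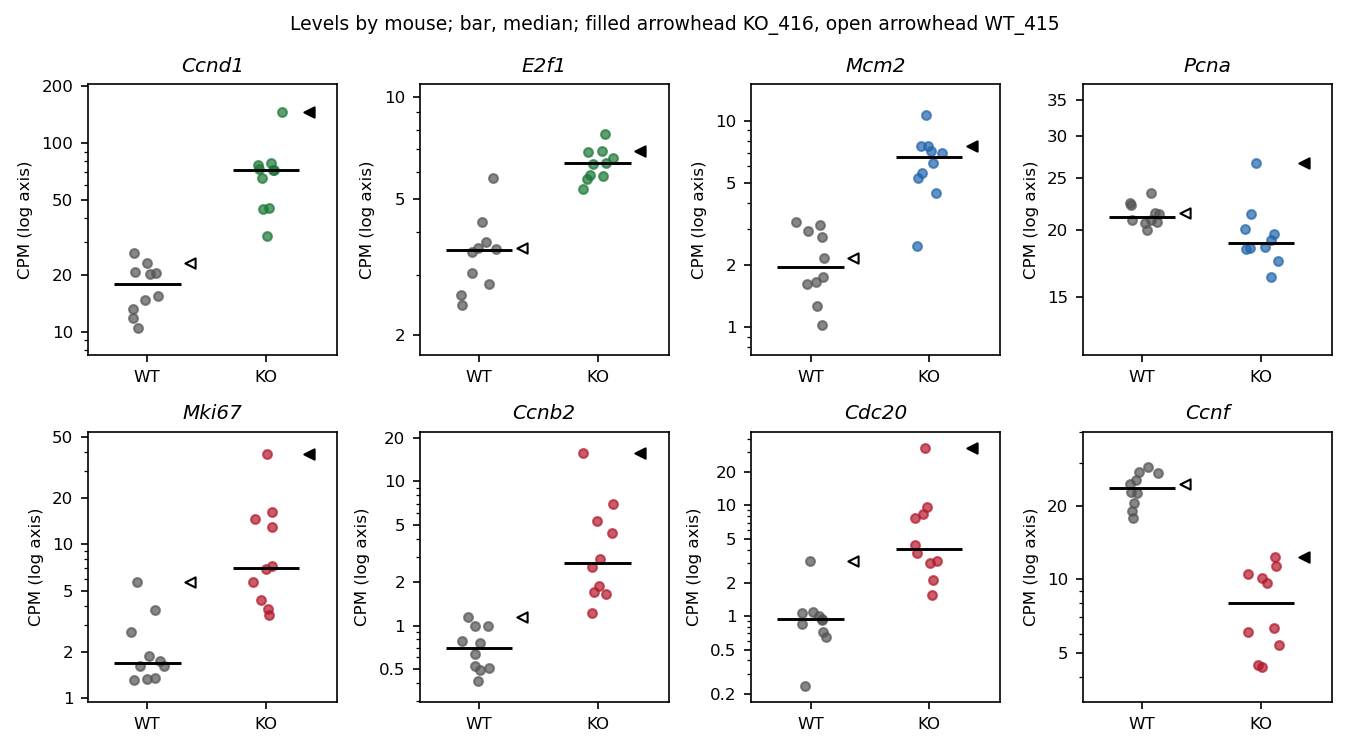
CPM (log axis) of 8 members in the 10 WT and 10 KO livers, with 1 point per mouse and a bar at the median; a filled arrowhead marks KO_416 and an open one WT_415. Ccnd1, Ccnb2 and Ccnf show no overlap of the groups, while Pcna overlaps and its highest value, 26.8 CPM, is KO_416.

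Within the S-phase class, the genes for origin licensing and the replicative helicase did not move as a unit. Mcm2 (mm10 chromosome 6, 88883474 to 88898780) and Mcm6 encode subunits of the same hexameric helicase as Mcm3, Mcm4, Mcm5 and Mcm7. Mcm2 spanned 1.02 to 3.22 CPM (median 1.96) in WT and 2.46 to 10.7 CPM (median 6.64) in KO, with a log2 fold change of 1.58 (SE 0.23; edgeR adjusted p = 4.89e-06). For Mcm2, 9 of 10 KO mice lay above all WT mice, and the exception was KO_391. Mcm6 spanned 1.64 to 7.45 CPM (median 3.56) in WT and 3.85 to 16.9 CPM (median 8.55) in KO, with a log2 fold change of 1.23 (SE 0.24; edgeR adjusted p = 0.000171). The other 4 subunits did not pass the test. Mcm3 spanned 2.63 to 5.27 CPM (median 4.19) in WT and 2.98 to 9.12 CPM (median 4.08) in KO, at a log2 fold change of 0.17 (SE 0.18). Mcm4 spanned 2.69 to 4.26 CPM (median 3.27) in WT and 2.62 to 6.82 CPM (median 3.66) in KO, at 0.24 (SE 0.15). For Mcm3 and Mcm4 the highest KO value was that of KO_416. Mcm5 spanned 1.30 to 3.23 CPM (median 2.18) in WT and 0.874 to 7.28 CPM (median 2.32) in KO, at 0.38 (SE 0.29). Mcm7 spanned 11.8 to 17.0 CPM (median 14.5) in WT and 10.8 to 21.7 CPM (median 12.6) in KO, at -0.09 (SE 0.10). All 4 were called higher with library size alone, as were 68.4% of all tested genes. That scaling turned the sign of Mcm7 to 0.40.

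The GINS subunits, which join Cdc45 and the MCM ring in the active helicase, differed in sign. Gins1 spanned 2.58 to 5.45 CPM (median 3.92) in WT and 1.34 to 4.91 CPM (median 1.83) in KO, and fell by 0.84 on the log2 scale (SE 0.22; edgeR adjusted p = 0.00226). It was the only S-phase gene called lower, 8 of 10 KO mice lay below all WT mice, and the call was lost with library size alone (-0.37, adjusted p = 0.138). Gins2 spanned 0.175 to 1.33 CPM (median 0.422) in WT and 0.477 to 4.09 CPM (median 0.902) in KO, with a log2 fold change of 1.33 (SE 0.42; edgeR adjusted p = 0.00871). Without KO_416 the Gins2 value was 0.94 (adjusted p = 0.0237). Gins2 shares 118 exon bases with the more abundant Gse1 on the other strand. Cdc45 itself spanned 0.683 to 2.14 CPM (median 1.10) in WT and 1.14 to 3.08 CPM (median 1.55) in KO, at 0.49 (edgeR adjusted p = 0.0656).

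The licensing factors were close to the threshold or too low to test. Cdt1, which loads the helicase, spanned 2.17 to 5.25 CPM (median 3.96) in WT and 3.02 to 6.62 CPM (median 5.44) in KO. Its log2 fold change was 0.38 (SE 0.16; edgeR adjusted p = 0.0458), and leaving out any of 11 mice removed the call (adjusted p up to 0.0839). Cdc6, its partner, did not pass the filter on low counts: it spanned 0.117 to 0.617 CPM (median 0.261) in WT and 0.0461 to 0.974 CPM (median 0.178) in KO. The highest Cdc6 value was that of KO_416.

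No change passed the test for the fork and nucleotide genes among the members. Pcna (mm10 chromosome 2, 132249286 to 132253180), the sliding clamp of the DNA polymerases, was the second most abundant member per length in WT at 16.8 RPKM. It spanned 20.02 to 23.4 CPM (median 21.2) in WT and 16.3 to 26.8 CPM (median 18.9) in KO, at a log2 fold change of -0.12 (SE 0.07; edgeR adjusted p = 0.123). For Pcna, 7 KO mice lay below all WT mice and KO_416 lay above all of them. Without KO_416 it was called lower (-0.16, adjusted p = 0.0143), and with library size alone it was called higher (0.35, adjusted p = 6.41e-04). Rrm1 and Rrm2 encode the subunits of ribonucleotide reductase, which makes deoxynucleotides. Rrm1 spanned 7.45 to 10.4 CPM (median 8.69) in WT and 4.93 to 16.4 CPM (median 6.92) in KO, at -0.12 (SE 0.17). Rrm2 spanned 3.37 to 7.53 CPM (median 5.25) in WT and 3.39 to 10.7 CPM (median 5.97) in KO, at 0.32 (SE 0.22). Tyms, thymidylate synthase, spanned 3.80 to 6.77 CPM (median 4.99) in WT and 3.38 to 8.49 CPM (median 5.01) in KO, at 0.03 (SE 0.15). KO_416 held the highest KO value of Rrm1, Rrm2 and Tyms.

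Among the transcription factors of this class, Mybl1 stood apart from Mybl2 and the repressive E2Fs. Mybl1 (mm10 chromosome 1, 9668831 to 9700209) encodes A-MYB and spanned 0.117 to 0.737 CPM (median 0.306) in WT and 0.437 to 2.74 CPM (median 1.66) in KO. For it 9 of 10 KO mice lay above all WT mice, and the log2 fold change was 2.30 (SE 0.31; edgeR adjusted p = 1.68e-06). KO_416 was not the highest mouse for Mybl1, and without it the value was 2.27. Mybl2, B-MYB, spanned 0.293 to 1.11 CPM (median 0.782) in WT and 0.252 to 1.17 CPM (median 0.578) in KO, at -0.31 (SE 0.30). E2f7 spanned 0.122 to 1.56 CPM (median 0.701) in WT and 0.159 to 0.887 CPM (median 0.480) in KO, at -0.38 (SE 0.33). E2f8 spanned 5.76 to 22.6 CPM (median 8.69) in WT and 7.29 to 26.1 CPM (median 11.3) in KO, at 0.32 (SE 0.29). Both encode atypical E2F repressors known for their part in hepatocyte polyploidy, and neither passed the test. With library size alone the S-phase class gave 14 higher and 0 lower calls, where 68.4% of all tested genes were higher and 6.71% lower.

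**Figure D4:**
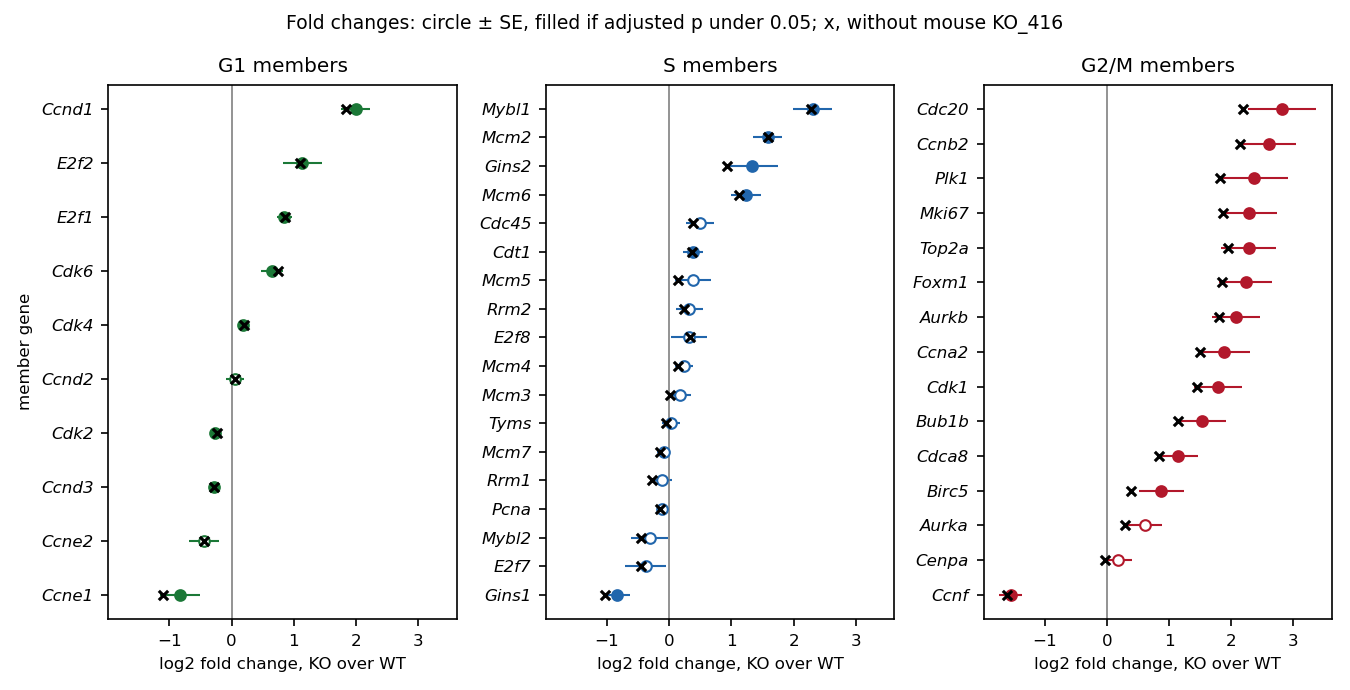
Log2 fold change of KO over WT for the 43 tested members by class; circles show the fit to all mice with SE bars and are filled where the edgeR adjusted p is under 0.05, and crosses show the fit without KO_416. Crosses lie left of the circles for the G2/M genes, and Birc5 moves from 0.87 to 0.39.

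Mitotic cyclins and Cdk1 rose together, with Ccnf as the exception. Ccnb2 (mm10 chromosome 9, 70407689 to 70421554, 9 exon blocks), a B-type cyclin that activates Cdk1, spanned 0.410 to 1.15 CPM (median 0.697) in WT and 1.22 to 15.8 CPM (median 2.74) in KO. The groups did not overlap, and the log2 fold change was 2.60 (SE 0.44; edgeR adjusted p = 3.02e-05), or 2.15 without KO_416. Ccnb1, the main partner of Cdk1 at mitotic entry, was removed by the filter on low counts, with at most 7 fragments in any WT mouse. It spanned 0.0410 to 0.380 CPM (median 0.187) in WT and 0.437 to 10.05 CPM (median 1.70) in KO, again without overlap. The annotation also lists a pseudogene, Ccnb1-ps, with which reads could be shared. Ccna2 spanned 0.410 to 2.67 CPM (median 0.961) in WT and 0.914 to 13.7 CPM (median 3.31) in KO, with a log2 fold change of 1.88 (SE 0.42; edgeR adjusted p = 6.38e-04). It shares 378 exon bases with Exosc9, whose mean level was 8.92 CPM in WT and 9.82 CPM in KO. Cdk1 spanned 0.674 to 3.09 CPM (median 1.38) in WT and 1.75 to 15.8 CPM (median 3.87) in KO, with a log2 fold change of 1.79 (SE 0.39; edgeR adjusted p = 4.61e-04).

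Ccnf (Entrez gene 12449; mm10 chromosome 17, 24223232 to 24251409, 17 exon blocks) encodes cyclin F, the substrate adaptor of an SCF ubiquitin ligase, and does not activate a kinase. It was the most abundant G2/M gene per length in WT, at a median of 7.64 RPKM, and was at 2.58 RPKM in KO. It spanned 17.9 to 28.7 CPM (median 23.7) in WT and 4.39 to 12.3 CPM (median 7.99) in KO, without overlap. The log2 fold change was -1.55 (SE 0.18; edgeR adjusted p = 3.07e-07), -1.61 without KO_416 and -1.08 with library size alone. The 2 highest KO values were those of KO_416, at 12.3 CPM, and KO_391, at 11.3 CPM. In KO_416 the mitotic genes and Ccnf were therefore both at the top of the KO range.

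Mki67 and Top2a rose by similar amounts, and Cenpa did not pass the test. Mki67, the gene of the proliferation marker Ki-67, spanned 1.31 to 5.71 CPM (median 1.69) in WT and 3.49 to 38.7 CPM (median 7.07) in KO, with a log2 fold change of 2.29 (SE 0.45; edgeR adjusted p = 2.00e-04). The highest WT value was that of WT_415, and the next was 3.76 CPM. Top2a, the topoisomerase that untangles sister chromatids, spanned 0.612 to 4.10 CPM (median 1.10) in WT and 1.64 to 22.5 CPM (median 5.54) in KO, with a log2 fold change of 2.28 (SE 0.44; edgeR adjusted p = 1.90e-04). For Mki67 and for Top2a, 7 of 10 KO mice lay above all WT mice. Cenpa, the histone H3 variant of centromeres, spanned 3.44 to 9.01 CPM (median 6.06) in WT and 3.96 to 16.3 CPM (median 5.24) in KO. Its log2 fold change of 0.18 did not pass (edgeR adjusted p = 0.501) and turned to -0.03 without KO_416.

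Plk1 and Aurkb rose, while Aurka was close to the threshold. Plk1, a kinase of mitotic entry, spanned 0.122 to 1.75 CPM (median 0.667) in WT and 0.675 to 15.2 CPM (median 1.85) in KO, with a log2 fold change of 2.37 (SE 0.55; edgeR adjusted p = 8.70e-04). Aurkb, Birc5 and Cdca8 encode aurora kinase B, survivin and borealin, which act in 1 complex at the centromere. Aurkb spanned 0.146 to 1.29 CPM (median 0.320) in WT and 0.829 to 5.22 CPM (median 1.72) in KO, at 2.08 (SE 0.39; edgeR adjusted p = 9.03e-05). Cdca8 spanned 0.674 to 1.98 CPM (median 1.38) in WT and 0.691 to 8.53 CPM (median 2.67) in KO, at 1.15 (SE 0.32; edgeR adjusted p = 0.00378). Birc5 rose less, from 1.35 to 3.22 CPM (median 2.22) in WT to 1.18 to 14.96 CPM (median 2.57) in KO, at 0.87 (edgeR adjusted p = 0.044). Without KO_416 Birc5 was at 0.39 (adjusted p = 0.162), and leaving out any of 11 mice removed its call. Aurka, the kinase of centrosomes, spanned 1.47 to 4.01 CPM (median 2.31) in WT and 2.26 to 11.2 CPM (median 2.95) in KO, at 0.61, and did not pass (edgeR adjusted p = 0.0594). Aurka passed when any of 6 mice was left out, with DESeq2 (adjusted p = 0.0448) and with library size alone (1.09, adjusted p = 0.00163), and was at 0.29 without KO_416 (adjusted p = 0.179). Foxm1, the transcription factor of mitotic genes, spanned 0.245 to 1.29 CPM (median 0.517) in WT and 0.546 to 9.12 CPM (median 2.01) in KO, at 2.23 (SE 0.43; edgeR adjusted p = 1.35e-04). It shares 90 exon bases with Tex52.

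The checkpoint and exit genes that could be tested rose. Cdc20 (mm10 chromosome 4, 118432901 to 118437343, 10 exon blocks), the activator of the anaphase-promoting complex, spanned 0.234 to 3.18 CPM (median 0.943) in WT and 1.55 to 33.0 CPM (median 4.03) in KO. Its log2 fold change of 2.82 (SE 0.54; edgeR adjusted p = 1.76e-04) was the largest among the 43 tested members, and it was 2.19 without KO_416. The WT maximum was WT_415, and the next WT value was 1.09 CPM, below all 10 KO mice. Bub1b, a spindle checkpoint kinase, spanned 0.527 to 1.84 CPM (median 0.728) in WT and 0.755 to 8.37 CPM (median 1.89) in KO, at 1.53 (SE 0.38; edgeR adjusted p = 0.00159). Bub1, its relative, was removed by the filter on low counts and spanned 0 to 0.599 CPM (median 0.109) in WT and 0.199 to 3.66 CPM (median 0.686) in KO. With no filter Ccnb1 was at 3.54 (edgeR adjusted p = 2.81e-05), Bub1 at 2.54 (adjusted p = 0.00103) and Cdc6 at 0.14 (adjusted p = 0.828), where 20.2% of 20914 genes were called higher and 21% lower. The next highest KO mouse after KO_416 was KO_414 for 9 of the 17 G2/M genes and KO_434 for 5.

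These genes were scarce in WT liver. Per length, 27 of the 46 members had a WT median below 1 RPKM, of which 14 were among the 17 G2/M genes, and in KO 19 members did. In WT, Cdk4, Pcna and Ccnd3 led the order at 23.6, 16.8 and 16.0 RPKM. For 14 of the 43 tested members fewer than 10 WT mice lay above the filter level of 0.462 CPM, and 7 of these were G2/M genes. The filter asked for 10 mice above that level, so all 14 of these members needed KO mice to pass it. The 7 G2/M genes among them were all called higher. For Gins2, Mybl1 and Aurkb fewer than 5 WT mice lay above the level. With no filter, which tests all 46 members, 22 were higher and 5 lower, and 13 of the 17 G2/M genes were higher and 1 was lower.

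**Figure D5:**
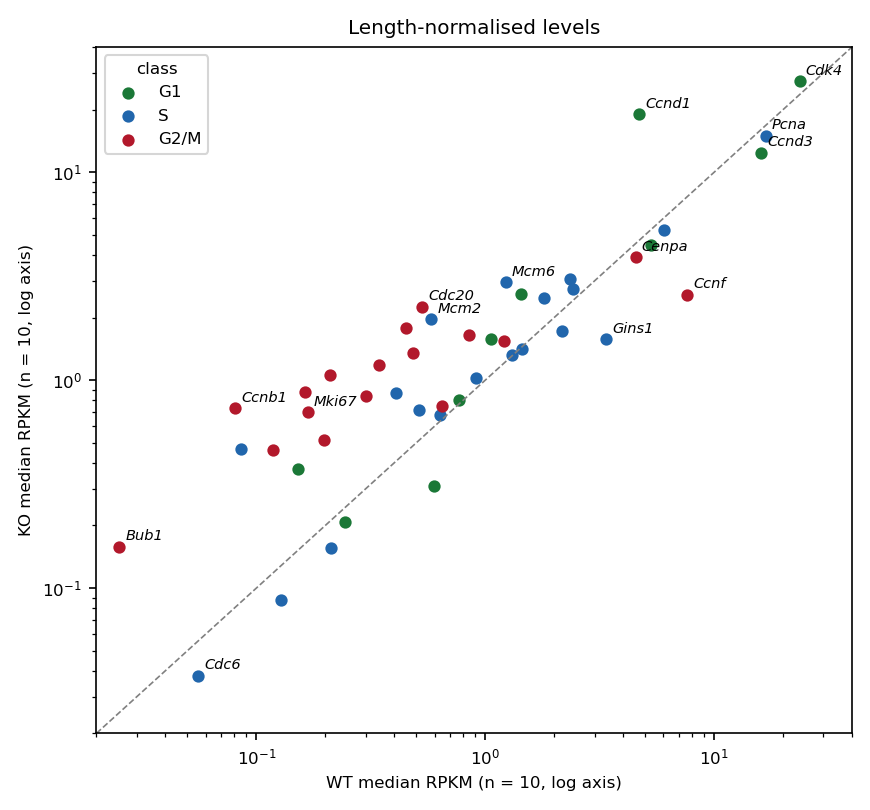
Median RPKM of each member in KO against WT (n = 10 each), both on log axes, coloured by class, with a dashed line of equal levels. Most G2/M genes lie above the line at low WT levels, Ccnd1 lies above it at 4.69 and 19.0 RPKM, and Ccnf lies below it at 7.64 and 2.58 RPKM.

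Other genes of the pathway were read against the shares of 28.2% higher and 31% lower over all tested genes. Of 20 tested genes of the spindle, kinetochore and cytokinesis, 17 were higher and 1, the securin gene Pttg1, was lower, with a median log2 fold change of 1.66. The Hmmr, Nek2 and Ect2 genes encode a spindle protein, a centrosome kinase and the exchange factor of the cleavage furrow. Hmmr was at 3.03 (SE 0.50; edgeR adjusted p = 2.65e-05) and Nek2 at 1.64 (adjusted p = 1.91e-05), both without overlap of the groups, and Ect2 was at 2.52 (adjusted p = 4.16e-06). Of 11 genes of mitotic entry and exit control, 7 were higher and 0 were lower, with a median of 0.50. Pkmyt1 and Wee1, kinases that hold Cdk1 inactive, were at 1.72 (edgeR adjusted p = 2.77e-06) and 1.88 (adjusted p = 7.42e-06), and Ube2c, a ubiquitin-conjugating enzyme of mitotic exit, was at 2.70 (adjusted p = 4.40e-05). With library size alone these counts became 19 higher and 0 lower for the spindle list and 10 higher and 0 lower for entry and exit. The shares over all tested genes were then 68.4% higher and 6.71% lower. Of 10 condensin and cohesin genes, 4 were higher and 3 were lower, with a median of 0.29; the condensin subunit Smc4 was at 0.60 (edgeR adjusted p = 8.56e-05), and the cohesin genes Smc1a and Stag1 were at -0.32 (adjusted p = 3.23e-05) and -0.26 (adjusted p = 1.79e-04). Under library size scaling Smc1a turned to 0.15 and Stag1 to 0.20, both called higher, and the list gave 9 higher and 0 lower.

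The replication lists were near or below the background shares. Of 10 tested genes of origin licensing and firing, 3 were higher and 3 were lower, with a median of -0.08. The replication initiation factor gene Mcm10 spanned 58.8 to 143 CPM (median 94.6) in WT and 4.81 to 53.6 CPM (median 12.9) in KO, without overlap, at -2.49 (SE 0.33; edgeR adjusted p = 2.72e-06). Gins3 was at 1.19 (edgeR adjusted p = 1.35e-05), and Dbf4, the activator of the Cdc7 kinase, was at 1.19 (adjusted p = 4.29e-05). Of 25 fork and nucleotide genes, 4 were higher and 6 were lower, with a median of -0.02. Tk1, thymidine kinase, was at -1.31 (edgeR adjusted p = 5.09e-06), and Lig1, the ligase of Okazaki fragments, was at 1.29 (adjusted p = 4.73e-05). Tk1 shares 88 exon bases with Afmid, whose mean level was 173 CPM in WT and 86.9 CPM in KO. Under library size scaling the licensing list gave 8 higher and 1 lower and the fork list 17 higher and 1 lower. The shares over all tested genes were then 68.4% higher and 6.71% lower.

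Other E2F factors, their partners and regulators, and the CDK inhibitors were divided. Of 13 genes for pocket proteins, the DREAM complex and other E2F factors, 6 were higher and 4 were lower, with a median of -0.005. E2f6, a repressive E2F, was at 1.12 (edgeR adjusted p = 4.34e-11), E2f3, an activating E2F, at 1.16 (adjusted p = 4.06e-10) and Lin37, a DREAM subunit, at 0.91 (adjusted p = 6.19e-07). Of 5 tested CDK inhibitor genes, 3 were higher and 1, Cdkn1b, was lower, with a median of 0.69. Cdkn2c was at 0.69 (edgeR adjusted p = 1.38e-05), Cdkn1c at 0.93 (adjusted p = 7.41e-04) and Cdkn2d at 0.39 (adjusted p = 0.00706). Cdkn1a, the gene of p21, was picked after its values were seen: it spanned 3.86 to 72.2 CPM (median 11.3) in WT and 15.1 to 91.4 CPM (median 61.8) in KO, at 1.21 (edgeR adjusted p = 0.0595), and passed under library size scaling (1.70, adjusted p = 0.00807). With library size alone the E2F and DREAM list gave 9 higher and 1 lower and the inhibitors 5 higher and 0 lower. The shares over all tested genes were then 68.4% higher and 6.71% lower.

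Markers of some other liver cells were also higher in KO, and others were lower or not called. These counts stand beside shares of 28.2% higher and 31% lower over all tested genes. All 8 markers of lipid-associated and infiltrating macrophages were higher in KO, with a summed level of 61.7 to 108 CPM in WT and 155 to 401 CPM in KO; Spp1 and Lyz2 were the most abundant. Of 8 Kupffer cell markers 5 were higher and 0 lower, with sums of 127 to 277 CPM in WT and 238 to 488 CPM in KO; Cd5l and Clec4f led. Stellate cell markers gave 4 higher of 6 (114 to 230 CPM in WT, 211 to 348 CPM in KO), endothelial markers 3 of 6 (107 to 205 and 153 to 195 CPM), and biliary markers 2 higher and 1 lower of 5 (23.9 to 56.2 and 48.8 to 189 CPM). Spp1 was in both the biliary and the macrophage list, so it was 1 of the 2 higher biliary calls and entered both sums. Lymphocyte and neutrophil markers were near the floor: sums were 2.34 to 13.1 CPM in WT and 1.80 to 16.3 CPM in KO for T and NK cells, 2.93 to 8.02 and 2.12 to 5.72 CPM for B and plasma cells, and 0.245 to 5.07 and 1.01 to 5.99 CPM for neutrophils. The T and NK list gave 0 higher and 1 lower (Cd4) of 1 tested, the B and plasma cell list 0 higher and 1 lower (Jchain) of 5, and the tested neutrophil genes S100a8 and S100a9 did not pass (edgeR adjusted p = 0.631 and 0.914). Cd3g, Cd8a, Ncr1, Ms4a1, S100a8, Ly6g, Retnlg, Cxcr2 and Mpo were at 0 in at least 1 library. Erythroid markers gave 0 higher and 2 lower of 4 tested, or 1 higher and 2 lower with library size alone, with sums of 160 to 306 CPM in WT and 30.8 to 105 CPM in KO. With library size alone the higher calls were 8 of 8 for those macrophages, 6 of 8 for Kupffer cells, 4 of 6 for stellate cells, 6 of 6 for endothelium and 3 of 5 for biliary cells, with 0 lower in each. Under that scaling 68.4% of all tested genes were called higher and 6.71% lower. In KO_416 the macrophage sum, 278 CPM, ranked 3 among the 10 KO mice, as did its Kupffer sum of 366 CPM. Its hepatocyte, endothelial and stellate sums also ranked 3, and its T and NK cell sum ranked 2. Its B and plasma cell, erythroid, biliary and neutrophil sums ranked 4, 5, 8 and 10. That mouse had the highest KO level for 5 of the 8 macrophage markers and 1 of the 8 Kupffer markers. It was highest for 3 of the 7 hepatocyte markers and for at most 1 marker of each other list. The part of these cells in the rise of the mitotic genes was not tested.

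The authors' deposited table of ROTS tests listed 40 of the 46 members. With an FDR under 0.05, the authors' deposited table had 20 higher and 3 lower members, where 22.1% of its 12820 genes were higher and 18.9% lower. By class, the authors' deposited table gave 4 higher and 1 lower of 9 G1 genes, 3 and 1 of 15 S-phase genes, and 13 and 1 of 16 G2/M genes. The lower genes in the authors' deposited table were Ccne1, Gins1 and Ccnf. Among gene ontology terms, the authors' deposited table gave hepatocyte proliferation, with 20 annotated genes, an FDR of 0.01. Mitotic nuclear division had an FDR of 0.666 and DNA replication an FDR of 1 in the authors' deposited table.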

How the data were processed

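Liver RNA of 20 mice, 10 per genotype, was compared. The authors deposited a table of raw counts of fragments for Entrez genes of an mm10 annotation, where multi-mapping fragments were not set aside. The names of the deposited tables give Rsubread and ROTS, while HISAT2 2.0.5 and DESeq2 are named per the submitters' processing notes; whether strand was used in counting is not given in the sources here. The deposited normalized signal equalled CPM under TMM factors of all genes (largest relative deviation 4.88e-15), and the deposited RPKM values were that signal per kilobase (5.11e-15). CPM printed here use factors of the filtered genes and differ from the signal by at most 0.0103 as a fraction. The deposited ROTS table holds log2 fold changes, and p-values and FDR per the file headers. A further 24 columns of per-sample values were not used here.

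Counts were tested with edgeR 4.0.16 in R 4.3.3 (filterByExpr, minimum count 10 and total 15; TMM; robust quasi-likelihood F test; Benjamini-Hochberg adjustment over 13670 genes at 0.05), after the script was tested on simulated data. Genes left out held 0.0858% of fragments. SE is the size of edgeR's unshrunk log2 coefficient divided by the square root of the F statistic. The log2 fold changes printed are edgeR's shrunken values. Log2 CPM in the heat map have a prior count of 2. Alternatives were library size, RLE and upper-quartile scaling, no filter, a filter of CPM 1 in 10 mice, DESeq2 1.42.0, limma-voom 3.58.1 with quality weights, and leaving out each mouse; leaving out KO_416 and WT_415 together was added after seeing the data. The labels number mice and name no litter or culture, and replicates differed beyond sampling noise (chi-square per degree of freedom 12.8 to 252).

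The members, classes and lists were chosen with earlier results of these data known. Values are given for up to 6 members per class with the smallest adjusted p, for members without a test, for those whose call changes with library size scaling and, in ranges, for the rest; for pathway lists up to 3 members with the smallest adjusted p are named, and for marker lists those with the highest level; some genes that met this rule are left out of the text. Markers Tf and Hbb-bt were not analysed here. Promoters are RefSeq's.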

Additional observations from a re-analysis of the deposited data

Results flagged for a closer look

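In 6 of 88 groups of 10 mice examined (44 genes in each genotype), the lowest or highest mouse was separated from its neighbour by a large part of the group's range of log2 CPM (prior count 2), where chance flags about 1 in 20 groups. In 4 of the 6 the mouse was KO_416. Its Aurka level of 11.2 CPM stood above the next KO value of 4.35 CPM, a gap of 0.595 of the KO range on the log2 scale. Its Mcm3 level of 9.12 CPM stood above 5.23 CPM (0.5 of the log2 range), its Mcm7 level of 21.7 CPM above 15.4 CPM (0.492) and its Cenpa level of 16.3 CPM above 8.33 CPM (0.476). These 4 genes did not pass the test between genotypes with TMM scaling. In KO_391, E2f7 was lowest at 0.159 CPM, below the next value of 0.386 CPM (0.474 of the log2 range). In WT_429, Ccne1 was lowest at 0.390 CPM, below 0.875 CPM (0.468 of the log2 range).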

How the results depend on the processing

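No paired analysis was possible because no mouse number in the labels is shared between KO and WT, and no litter or batch is named. RLE and upper-quartile scaling gave the same numbers of calls as TMM for the members and each class. Library size scaling moved the counts furthest, to 35 higher and 1 lower over all members. It gave 0 lower in G1, and 14 higher and 0 lower in S. Of all tested genes it called 68.4% higher and 6.71% lower. Its own construction, without composition factors, shifts all genes by 0.47 on the log2 scale. It reversed Ccnd3 to 0.18, Ccne2 to 0.016, Cdk2 to 0.21, Mcm7 to 0.40, Pcna to 0.35, Rrm1 to 0.35, E2f7 to 0.094 and Mybl2 to 0.16. The stricter filter, which tests fewer genes, left 3 higher S-phase genes of 14, where 3648 of 12575 genes were higher and 4004 lower. Limma-voom gave 2 lower S-phase genes, and over all members 20 higher and 7 lower, with 10 higher in G2/M and 4 lower in G1. Its calls over 13670 genes were 4141 higher and 4446 lower. Leaving out both KO_416 and WT_415 gave 3 higher and 2 lower S-phase genes. Mybl1 was not among the 17 S-phase genes tested in that fit. The cause of the limma-voom counts was not tested, nor was that of the remaining change with both mice left out. DESeq2 gave 25 higher and 5 lower members, with 15 higher and 1 lower in G2/M, over all 46. Its calls over 18475 genes were 4399 higher and 4248 lower. With both mice left out Tyms was at -0.077 and Cenpa at -0.0139. Leaving out each mouse in turn gave 20 to 25 higher and 4 to 6 lower members, 11 to 15 higher G2/M genes, and 1 to 2 lower S-phase genes, the 2 without KO_416. In those fits Ccnd2 reversed to -0.013 (without WT_409; highest 0.151, without WT_441), Tyms to -0.012, -0.016, -0.0023 and -0.048 (without WT_389, WT_390, WT_429 and KO_416; highest 0.107, without KO_391) and Cenpa to -0.027 (without KO_416; highest 0.269, without KO_453). Hsd17b12 stayed between -1.70 and -1.62. Low fragment numbers limit the G2/M genes in WT, where Ccnb1 had at most 7 fragments in a mouse.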
